A study of Mus musculus with 48 samples.

Results

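The genes of the translation initiation factors were followed in mouse macrophages treated with AP-3-84, a compound known from the labels by its code alone. Members were taken by name: every line of the count table whose gene is a protein-coding mouse gene with a symbol made of Eif and a number, which gave 55 of 51789 gene IDs. A further 9 lines with such symbols belong to genes that are not protein-coding (at most 5 counts in a library) and were left out. The family was chosen because Eif5 was higher after AP-3-84 in 4 populations, so the AP-3-84 values of Eif5 are given as a description without a test, and the other 54 members carry the question of which factors follow it.

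Each of 16 groups had 3 libraries, 8 groups treated for 4 h with 10 µM AP-3-84 and 8 with DMSO in the same amount (vehicle). Ascites macrophages were washed from the peritoneum of mice, labelled B6(Cg)-Tyrc-2J/J, on day 45 of an ID8 tumour (ID8 being an ovarian cancer line of the mouse), and thioglycollate macrophages came from wild-type C57BL/6 mice on day 4 of an inflammation set off with 1 ml of 3% thioglycollate. Both were sorted with F4/80 beads. Bone marrow-derived macrophages of wild-type (WT) or p53 knockout (KO) C57BL/6 mice were grown for 6 days in M-CSF at 10 ng/mL and left as M0, or kept for 24 h more in LPS (100 ng/mL) with IFN-γ (50 ng/mL) as M1, or in IL-4 with IL-13 (each at 10 ng/mL) as M2. The genotype field calls all bone marrow-derived libraries wild-type, so WT and KO follow the titles. Strain C57BL/6 is given for all groups, and neither the deleted part of Trp53 nor the number of animals behind a group is stated.

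Translation of most messages begins when the cap-binding complex eIF4F (the cap-binding protein Eif4e, the scaffold Eif4g1 and the helicase Eif4a1) recruits a small ribosomal subunit that already carries eIF1, eIF1A, eIF3, eIF5 and the ternary complex of eIF2, GTP and initiator tRNA. Once the subunit has scanned to a start codon, eIF5 triggers GTP hydrolysis by eIF2 and thereby commits the ribosome to that codon, and eIF5B joins the large subunit. Stress kinases (Eif2ak1 to Eif2ak4) phosphorylate eIF2 and so block its recycling by the exchange factor eIF2B, and 4E-binding proteins such as Eif4ebp1 hold Eif4e away from Eif4g1. In macrophages these steps set how quickly cytokine and stress-response messages are turned into protein.

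With the compound, Eif5, Eif1, Eif2s2 and Eif4e were higher in KO M0 macrophages, and Eif4ebp2 was lower. Not all of these directions held in the other populations where Eif5 was higher. Eif2s2 and Eif4e were not higher in WT M2 macrophages, and Eif4ebp2 was not lower in ascites macrophages. To let a reader compare the sequence before their starts, the bases before the annotated gene are shown for Eif5, Eif1, Eif2s2, Eif4e and Eif4ebp2. They are the RefSeq promoter windows (GRCm38.p6, 5′ to 3′ in the direction of transcription), shortened to end where the GENCODE gene begins, with capitals for a match to a searched motif.
Eif5 (chr12:111537851-111538015, plus strand): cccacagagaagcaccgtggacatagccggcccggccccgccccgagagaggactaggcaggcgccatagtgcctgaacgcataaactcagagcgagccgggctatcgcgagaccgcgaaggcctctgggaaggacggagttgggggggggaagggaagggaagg
Eif1 (chr11:100319699-100319884, plus strand): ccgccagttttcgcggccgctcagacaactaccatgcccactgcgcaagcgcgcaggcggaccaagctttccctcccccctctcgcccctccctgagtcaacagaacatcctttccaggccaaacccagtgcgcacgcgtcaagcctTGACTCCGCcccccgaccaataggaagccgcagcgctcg
Eif2s2 (chr2:154892936-154893156, minus strand): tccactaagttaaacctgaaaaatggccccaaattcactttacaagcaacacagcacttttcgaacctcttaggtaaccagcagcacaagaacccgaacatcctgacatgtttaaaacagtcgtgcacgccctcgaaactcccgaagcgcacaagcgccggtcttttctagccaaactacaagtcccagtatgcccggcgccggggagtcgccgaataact
Eif4e (chr3:138525941-138526178, plus strand): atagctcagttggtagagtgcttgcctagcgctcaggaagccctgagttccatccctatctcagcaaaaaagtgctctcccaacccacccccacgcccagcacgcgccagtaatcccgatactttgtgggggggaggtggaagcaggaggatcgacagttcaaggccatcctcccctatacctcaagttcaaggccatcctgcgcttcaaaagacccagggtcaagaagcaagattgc
Eif4ebp2 (chr10:61452670-61452919, minus strand): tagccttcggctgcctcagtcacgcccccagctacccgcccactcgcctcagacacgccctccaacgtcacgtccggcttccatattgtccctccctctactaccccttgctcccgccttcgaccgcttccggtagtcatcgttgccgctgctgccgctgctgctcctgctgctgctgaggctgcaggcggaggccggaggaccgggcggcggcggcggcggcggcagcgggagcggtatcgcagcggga
Only the Eif1 sequence holds a match, to the antioxidant response element core TGACNNNGC. RefSeq windows matched 43 of the 55 members, in 56 windows. Both strands of the 250 bases before each start were searched. TGACNNNGC was found in 8 of the 56 member windows (14.3%) and in 10.2% of all 32851 windows. The ATF4/CHOP composite core TGATGNAA was found in 1 member window (Eif2s3x), at 1.79% against 3.45% of all. The heat shock element cores GAANNTTC and TTCNNGAA stood in 8.93% and 7.14% of member windows, against 6.69% and 7.17% of all. The E-box CACGTG was found in 11 member windows (19.6%) of 9 genes, among them Eif4g1, Eif4a1, Eif5a and a second Eif4e window that begins inside the gene, against 6.02% of all. Several windows of 1 gene can overlap, and member windows were richer in G and C (median 61.2% against 52.4%), which these shares do not take into account. TGACNNNGC and TGATGNAA can overlap in a window, and a match describes letters only.

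Peritoneal libraries held 15532373 to 19417581 counts and bone marrow-derived libraries 3081707 to 4645148. Levels are given as CPM (counts scaled to a common library size), and the 2 kinds of library were scaled and tested apart, so their CPM are not compared with each other. Macrophage markers summed to 23747 to 34749 CPM in peritoneal, 23402 to 48715 in WT and 5894 to 38950 in KO libraries. Of these, Lyz2 alone measured 19262 to 31047, 18895 to 41680 and 3091 to 31810 CPM in the same order. Csf1r, Fcgr1 and Mertk reached 8054, 599 and 337 CPM in KO libraries and 3536, 410 and 114 CPM in WT. The highest values of Adgre1, Cd68, Itgam and Lyz2 were lower in KO than in WT. Markers of neutrophils summed to 28.1 to 65.3, 198 to 3934 and 273 to 3578 CPM in the same order. In peritoneal libraries this sum was nearly all S100a8 (27.7 to 65 CPM). There S100a9, Ly6g, Retnlg and Ngp reached at most 0.27, 0.23, 0.15 and 0 CPM, so the sum does not follow neutrophils as such. In WT libraries S100a8, S100a9 and Ngp reached 2310, 1402 and 220 CPM, but Retnlg and Ly6g only 1.58 and 1.11 CPM. In KO libraries the 5 genes reached 2072, 1419, 233, 4.62 and 1.26 CPM in the same order. The bone marrow-derived sums, here and below, thus rest largely on S100a8 and S100a9 and need not follow neutrophils either. The p53 target Phlda3 measured 9.17 to 40.5 CPM in WT and 0 to 1.31 CPM in KO libraries, apart as the titles separate them, while Trp53 itself measured 4.79 to 13.2 CPM in WT and 2.7 to 9.11 CPM in KO libraries, and a 3′ tag outside the deleted part would check nothing. These are bulk libraries, in which fewer cells of a type and less RNA per cell cannot be told apart.

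Of the 55 members, 53 passed the filter on low counts in peritoneal and 54 in bone marrow-derived libraries. Eif2s3y, the Y-linked copy of an eIF2 subunit gene, had 0 counts in all 12 peritoneal libraries and 7.37 to 20.1 CPM in the 36 others. Eif4e1b, an oocyte-type relative of Eif4e, had 6 counts in 1 ascites library and 0 in the other 47. Some members share 3′ sequence with other genes, and their counts are uncertain: 88.9% of the 30-base words in the last 300 bases of Eif3j2 also occur in Eif3j1, 100% of those of Eif4ebp3 in a read-through transcript, 52.8% of those of Eif3m and 35.4% of those of Eif4a3 in a pseudogene or copy. The 3′ exons of Eif3j1, Eif3m, Eif4a2 and Eif5b overlap a gene on the other strand.

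Eif5 (ENSMUSG00000021282, chr12:111538016-111546752, plus strand, GRCm38) encodes the factor that makes eIF2 hydrolyse its GTP at the start codon. In ascites macrophages it measured 192, 209 and 201 CPM with vehicle and 253, 251 and 251 CPM with AP-3-84. In thioglycollate macrophages it measured 226, 225 and 239 CPM against 303, 326 and 330 CPM. All 3 treated libraries lay above all 3 vehicle libraries in both peritoneal populations, with log2 fold changes of 0.33 and 0.47.

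In WT M2 macrophages Eif5 measured 268, 236 and 241 CPM with vehicle and 358, 322 and 347 CPM with AP-3-84, a log2 fold change of 0.46. In KO M0 macrophages it measured 262, 241 and 253 CPM against 370, 427 and 361 CPM, a log2 fold change of 0.62. In neither did the groups overlap. In the 4 other populations they did overlap, with log2 fold changes of 0.03 in WT M0, 0.06 in WT M1, 0.03 in KO M1 and -0.15 in KO M2. The rule took rises only: the smallest of the 4 rises it counted was 0.33, and the highest value it did not count was 0.06. Leaving out 1 library turned the sign of the values near 0, which ranged from -0.03 to 0.11 in WT M0 and from -0.02 to 0.09 in KO M1.

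**Figure D1:**
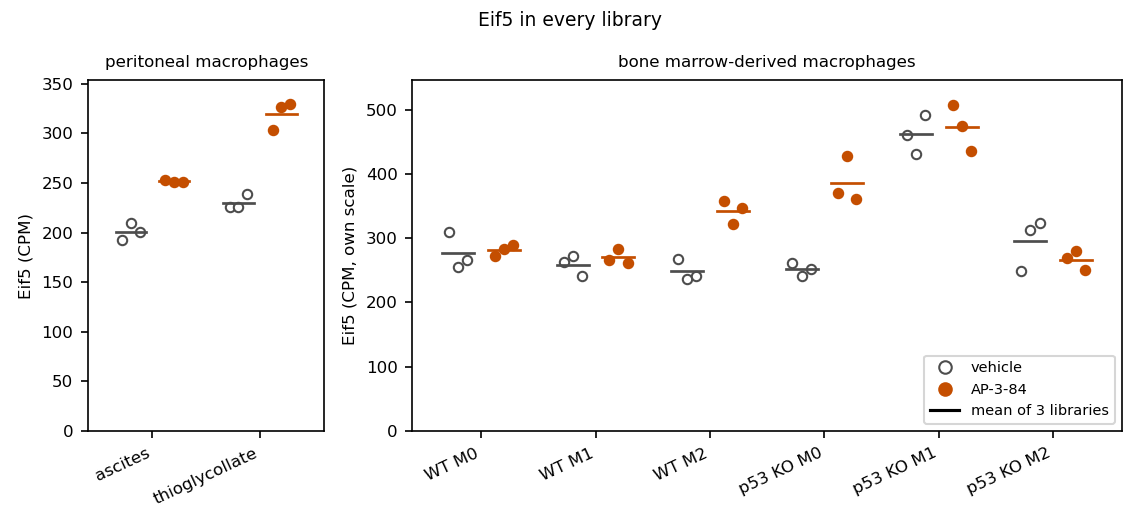
Eif5 level (CPM, linear axis from 0, own scale in each panel) in every library of the 8 populations, with open circles for vehicle, filled circles for AP-3-84 and a line for the mean of 3 libraries. Treated libraries lie apart from vehicle libraries in ascites, thioglycollate, WT M2 and p53 KO M0 macrophages, and the p53 KO M1 libraries are high with either treatment.

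The vehicle levels of Eif5 had no part in choosing the family. KO M1 macrophages held 461, 431 and 492 CPM of Eif5, against 263, 272 and 242 CPM in WT M1 and 262, 241 and 253 CPM in KO M0. All 3 KO M1 libraries stood above every library of the other 2 groups. The log2 fold change was 0.83 against WT M1 (SE 0.11, edgeR adjusted p = 2.02e-05) and 0.87 against KO M0 (SE 0.11, edgeR adjusted p = 4.15e-07). With AP-3-84 the KO M1 libraries held 506, 474 and 436 CPM, so the level was already this high without the compound.

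In ascites macrophages 2 of the 52 members tested beside Eif5 rose after AP-3-84 and 0 fell, while 1.79% of all 16955 genes tested were called in this comparison (1.69% higher and 0.1% lower). Both bear on the small subunit: Eif2s2 encodes the beta subunit of eIF2, on which eIF5 docks, and Eif3j2 a copy of the loosely held eIF3 subunit j. Eif2s2 (chr2:154871410-154892935, minus strand) measured 718, 723 and 681 CPM with vehicle and 891, 844 and 873 CPM with AP-3-84. The groups were apart and differed by 0.30 on the log2 scale (SE 0.06, edgeR adjusted p = 0.0187). Eif3j2, whose counts may hold reads of Eif3j1, measured 124, 138 and 115 against 158, 178 and 156 CPM, a difference of 0.38 (SE 0.09, edgeR adjusted p = 0.0274). Eif3j1 itself differed by -0.13 (SE 0.19, edgeR adjusted p = 0.876).

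In thioglycollate macrophages 6 of 52 rose and 0 fell, while 4.32% of all genes tested were called (2.51% higher and 1.82% lower). They were Eif2s2, Eif3j2, Eif1 (which keeps the scanning ribosome open until it meets a start codon), Eif4e, Eif4g2 (a scaffold like Eif4g1 that does not bind Eif4e) and the Eif4e inhibitor Eif4ebp1. Eif2s2 measured 549, 551 and 615 CPM with vehicle and 656, 722 and 758 CPM with AP-3-84 (0.32 on the log2 scale, SE 0.06, edgeR adjusted p = 0.00772). Eif4ebp1 measured 38.3, 40.9 and 47.8 against 57.6, 55.8 and 64 CPM (0.48, SE 0.11, edgeR adjusted p = 0.0202). In each of the 6 genes all treated libraries stood above all vehicle libraries.

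The other 4 thioglycollate rises were smaller or closer to the threshold. Eif4g2 measured 443, 429 and 438 CPM with vehicle and 515, 492 and 504 CPM with AP-3-84 (0.21, SE 0.05, edgeR adjusted p = 0.0275). Eif1 measured 700, 649 and 655 against 775, 759 and 775 CPM (0.20, SE 0.05, edgeR adjusted p = 0.0419). Eif4e measured 62.4, 56.2 and 60.9 against 70.8, 69.8 and 74.7 CPM (0.26, SE 0.07, edgeR adjusted p = 0.0465), and Eif3j2 differed by 0.34 (SE 0.09, edgeR adjusted p = 0.0336). Eif3j1, whose reads the Eif3j2 counts may hold, differed by 0.0005 (SE 0.19) and was not called. The Eif1 call was lost in all 13 alternative settings and so rests on the main setting alone, the Eif4e call in 12, the Eif4g2 call in 11, the Eif3j2 call in 9, the Eif4ebp1 call in 4 and the Eif2s2 call in 3. Leaving out any 1 library of the comparison gave 0 to 3 calls, and 0 to 1 in ascites macrophages, where the Eif2s2 call was lost in 6 and the Eif3j2 call in 9 of 13 settings. With all 48 libraries in one fit 0 were left in both.

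Most members of the peritoneal populations lay slightly above vehicle without passing the test. The log2 fold change was positive in 42 of 52 members in ascites and 35 of 52 in thioglycollate macrophages, with medians of 0.09 and 0.08, against medians of -0.00 and 0.03 over all genes tested. All treated libraries lay above all vehicle libraries for 17 of 52 members in ascites, where 9.86% of all genes did so, and for 14 of 52 in thioglycollate macrophages, where 12.7% did. The first number was 8 under either of the 2 other scalings. Below all vehicle libraries lay 0 of 52 (6.41% of all genes) and 2 of 52 (10.6%). Marker sums moved as well. Macrophage markers summed to 28655 to 30487 CPM with vehicle and 23747 to 28429 CPM with AP-3-84 in ascites, and to 34284 to 34749 against 27578 to 32739 CPM in thioglycollate macrophages. Markers of epithelium and the ID8 tumour summed to 123.9 to 149.6 against 149.6 to 165 CPM in ascites. Neutrophil markers, nearly all S100a8, summed to 61.8 to 65.3 against 51.5 to 58.4 CPM in thioglycollate macrophages. The part of these in the AP-3-84 values was not tested.

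In KO M0 macrophages 21 of the 53 members tested beside Eif5 were called, 19 higher and 2 lower, where 20.7% of all 11779 genes tested were called (12.1% higher and 8.57% lower). The third AP-3-84 library of this group stood apart from the other 2: it lay closest to the vehicle mean for 19 of the 21 called members, and for 85.7% of all 2440 called genes. Without it 23 members were called higher and 3 lower, and without the first or the second AP-3-84 library 15 and 14 were called. Macrophage markers summed to 38791, 17926 and 29060 CPM in the 3 treated libraries and 32252 to 38950 CPM with vehicle. B-cell markers, nearly all Cd79b, summed to 16.2, 22.7 and 6.6 against 2.2 to 5.2 CPM. Neutrophil markers summed to 292 to 473 against 560 to 713 CPM. The part of these in the result was not tested. Fitted on its 6 libraries alone the comparison called 9 members.

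The start codon and 43S group, formed by symbol, gave the most calls in KO M0: 8 of 13 rose and 0 fell, beside 12.1% and 8.57% of all genes. It holds factors that bring the initiator tRNA to the small subunit and pick the start codon. It also holds Eif1ad, Eif5b and Eif6, whose roles differ and which were among the calls. Eif2s2 measured 888, 969 and 1100 CPM with vehicle and 1882, 2159 and 1259 CPM with AP-3-84 (0.84 on the log2 scale, SE 0.18, edgeR adjusted p = 0.00098). Eif2s1, the eIF2 subunit that the stress kinases phosphorylate, measured 43, 43.1 and 32.2 against 87.7, 87.8 and 53.7 CPM (0.96, SE 0.24, edgeR adjusted p = 0.00481). The groups were apart in both, with the third treated library nearest to vehicle.

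The eIF1A genes, whose product helps the ribosome scan, rose in the same libraries. Eif1ax measured 56.3, 69.3 and 55.2 CPM with vehicle and 124, 153 and 79.7 CPM with AP-3-84 (0.98, SE 0.19, edgeR adjusted p = 0.000476), and Eif1a measured 64.2, 57.6 and 49.5 against 116, 108 and 81 CPM (0.84, SE 0.16, edgeR adjusted p = 0.000353). Eif1ad, a gene for a protein with an eIF1A-like domain, rose by 1.01. Eif1, Eif5b and Eif6 (which keeps free large subunits from joining) rose by 0.46, 0.35 and 0.43. The calls of Eif5b and Eif6 were each lost in 8 of 13 alternative settings. Eif2s3x differed by 0.60, with an edgeR adjusted p of 0.127.

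Among the genes of cap binding and scanning, 4 of 11 rose in KO M0 and 0 fell, beside 12.1% and 8.57% of all genes. Eif4g2 (chr7:111067750-111083030, minus strand) measured 592, 652 and 613 CPM with vehicle and 1739, 1690 and 850 CPM with AP-3-84 (1.20, SE 0.17, edgeR adjusted p = 7.86e-06). Eif4e (chr3:138526179-138559696, plus strand) measured 51.1, 64.3 and 56.3 against 137, 152 and 82.6 CPM (1.12, SE 0.21, edgeR adjusted p = 0.00032). In both genes the first 2 treated libraries held more than 2 times the highest vehicle value and the third lay between. Eif4g1 and Eif4a1 rose by 0.53 each, the call of Eif4a1 being lost in 6 of 13 alternative settings, while Eif4g3, a further scaffold, differed by -0.40 (edgeR adjusted p = 0.154) and Eif4a2 by -0.20.

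The 4E-binding proteins went in opposite directions in KO M0. Eif4ebp1 (chr8:27260329-27276674, plus strand) measured 70.2, 56.3 and 66.3 CPM with vehicle and 155, 132 and 129 CPM with AP-3-84 (1.11, SE 0.14, edgeR adjusted p = 1.98e-06). Here the third treated library was level with the second. Eif4ebp2, a second inhibitor of Eif4e, fell: 210, 170 and 144 CPM with vehicle and 109, 96.9 and 134 CPM with AP-3-84 (-0.62, SE 0.19, edgeR adjusted p = 0.019). Its groups were apart by a narrow margin, and 4 of 13 alternative settings lost the call.

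The eIF2 kinases were split as well. Eif2ak2 (PKR, which senses double-stranded RNA) rose, at 24.4, 22.5 and 23.5 CPM with vehicle and 40.9, 44.2 and 31.8 CPM with AP-3-84 (0.73, SE 0.20, edgeR adjusted p = 0.01). Eif2ak4 (GCN2, which senses uncharged tRNA) fell, from 21, 16.6 and 16.5 CPM to 10.4, 9.37 and 14.6 CPM (-0.66, SE 0.21, edgeR adjusted p = 0.0248), a call that 6 of 13 alternative settings lost. Eif2ak3 (PERK, the kinase of the endoplasmic reticulum) differed by -0.70 with an edgeR adjusted p of 0.185. Among the 5 eIF2B genes Eif2b1 differed by 0.72 (edgeR adjusted p = 0.0731) and Eif2b3 by 0.71 (edgeR adjusted p = 0.0525), with treated libraries above vehicle in both, and no eIF2B gene passed the test.

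Of the 14 eIF3 genes, whose complex is the platform on the small subunit, 4 rose in KO M0 and 0 fell, beside 12.1% and 8.57% of all genes. The 4 were Eif3b (0.63), Eif3c (0.44), Eif3g (0.55) and Eif3j2 (0.85). The Eif3c call was lost in 6 of 13 alternative settings. Eif3j2 measured 111, 92.7 and 80.3 CPM with vehicle and 183, 186 and 140 CPM with AP-3-84 (SE 0.15, edgeR adjusted p = 0.00012). Eif3j1, whose reads the Eif3j2 counts may hold, differed by 0.72 here and was not called. Eif5a, the factor that carries hypusine and eases elongation, measured 290, 306 and 304 against 597, 617 and 354 CPM (0.80, SE 0.18, edgeR adjusted p = 0.00177). Its relative Eif5a2 differed by 0.50, with an SE of 0.74. In 9 of the 21 members every alternative setting kept the call: Eif1a, Eif1ad, Eif1ax, Eif2s1, Eif2s2, Eif3j2, Eif4e, Eif4ebp1 and Eif4g2.

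**Figure D2:**
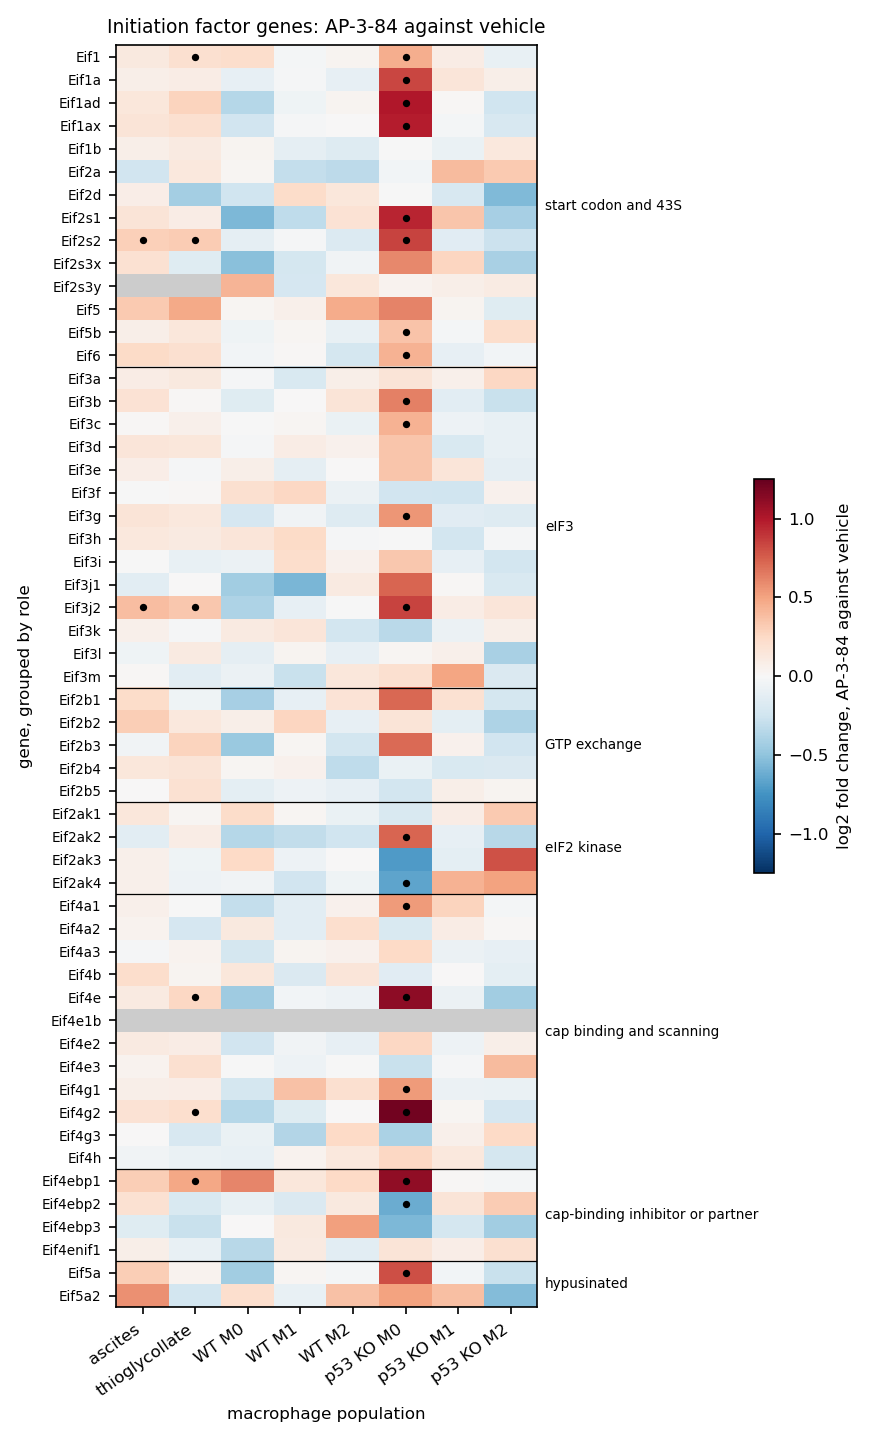
Log2 fold change of AP-3-84 against vehicle for the 55 members (rows, grouped by role) in 8 macrophage populations (columns), from red for higher to blue for lower with AP-3-84, grey where a gene was not tested, and a black dot where the member was called (no dots for Eif5, whose values chose the family). Dots fill the p53 KO M0 column (19 higher and 2 lower) and mark 2 genes in ascites and 6 in thioglycollate macrophages.

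In the other 5 populations 0 of 53 members beside Eif5 were called by edgeR, in comparisons that called 0.144% of all genes (WT M0), 0.017% (WT M1), 1.21% (WT M2, 0.229% higher and 0.976% lower), 0% (KO M1) and 0.0509% (KO M2, 0.034% higher and 0.017% lower). At an unadjusted p under 0.05 there were 6, 1, 0, 1 and 4 members in the same order. DESeq2 called 1 in WT M0 and 0 in the others. In WT M2, where Eif5 was higher by 0.46, the other members ranged from -0.33 to 0.52 with a median of 0.00. A p that misses the threshold does not show that a gene did not change.

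Counting only members whose treated and vehicle libraries did not overlap gave 25 of 53 above vehicle and 5 below in KO M0, where 15.4% and 16.7% of all genes did so. In WT M0 the counts were 4 above and 8 below (9.08% and 7.62% of all genes), and in WT M1 4 and 4 (9.6% and 8.73%). In WT M2 they were 4 and 1 (7.98% and 8.78%), in KO M1 1 and 0 (2.79% and 3.87%) and in KO M2 3 and 3 (6% and 5.38%). In WT M2 the 4 became 8 with scaling by totals, which moved the median of all genes by 0.112, and 2 with median-ratio factors.

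The largest genes of the KO M0 response measured otherwise in WT M0. Eif4g2 held 1131, 1326 and 1131 CPM with vehicle and 770, 933 and 1094 CPM with AP-3-84 in WT M0, a difference of -0.36 with an edgeR adjusted p of 0.5. Eif4e held 164, 108 and 111 against 75.8, 89.6 and 117 CPM. Eif4ebp1 was the exception, at 72.9, 83.6 and 76.2 CPM with vehicle and 112, 110 and 132 CPM with AP-3-84 (0.61, edgeR adjusted p = 0.0765), with the groups apart.

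**Figure D3:**
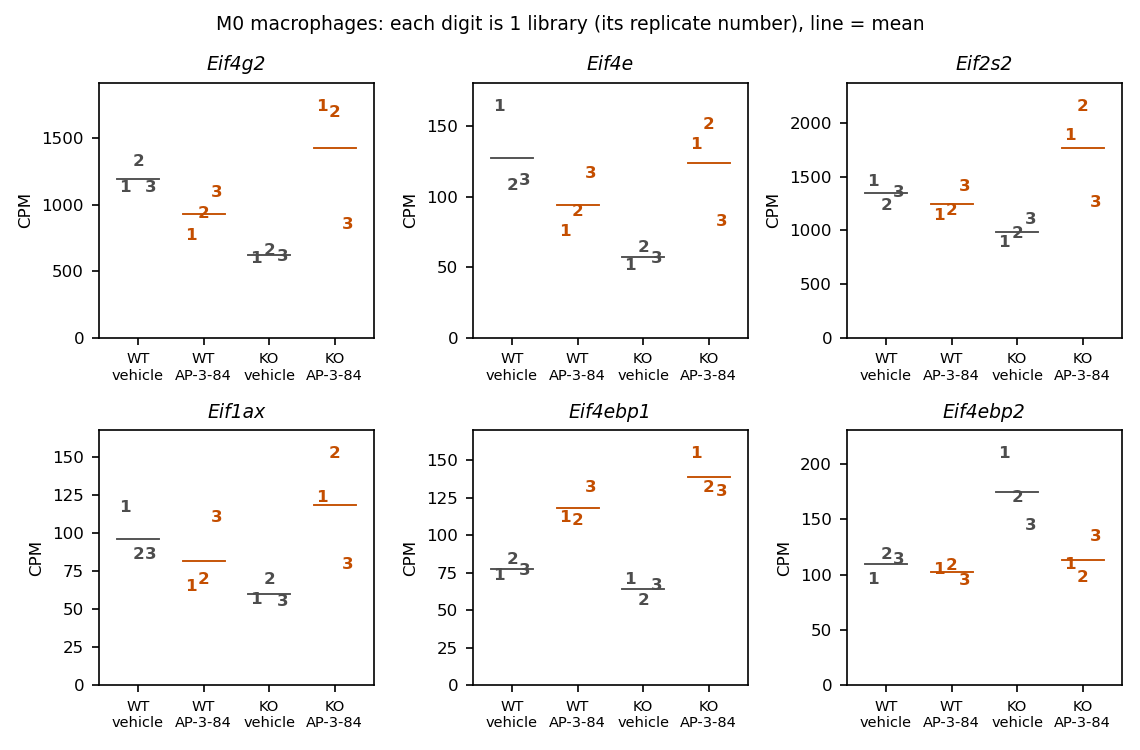
Levels (CPM, linear axes from 0) of 6 members in the 12 M0 libraries, each digit giving the replicate number of 1 library and each line the mean of 3. In p53 KO macrophages treated with AP-3-84, library 3 lies nearest to vehicle for Eif4g2, Eif4e, Eif2s2 and Eif1ax, but beside library 2 for Eif4ebp1, and the KO vehicle mean is the lowest of the 4 in all panels but that of Eif4ebp2.

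The difference between the KO and WT responses in M0 was tested itself. It uses the vehicle libraries of both genotypes. Among these, 16 of 54 members were called lower in KO M0 than in WT M0, where 16.8% of all genes were. Eif4g2, Eif4e and Eif3j2 were among the 16. The part of these vehicle levels in the difference of responses was not tested. Of all genes 17% were called in the test of that difference (10% higher and 6.99% lower). Beside Eif5 17 of 53 members were called, all in the direction of a higher response in KO. The lowest p belonged to Eif4g2 (difference of log2 fold changes 1.56, SE 0.24, edgeR adjusted p = 5.51e-05) and Eif3j2 (1.23, SE 0.21, edgeR adjusted p = 0.000152). Without the third KO M0 AP-3-84 library 26 were called, 25 higher and 1 lower. The same difference was called for 0 of 53 members in M1 (0.00849% of all genes; 5 at an unadjusted p under 0.05) and 0 of 53 in M2 (1.77%; 2 unadjusted), and the difference between ascites and thioglycollate responses for 0 of 52 (0.118%; 3 unadjusted). DESeq2 also called 0 in these 3.

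Averaged over both genotypes, the response of Eif4ebp1 was smaller in M1 than in M0 by 0.78 (SE 0.14, edgeR adjusted p = 0.0068) and smaller in M2 than in M0 by 0.75 (SE 0.14, edgeR adjusted p = 0.00413). It was the only member called among 53 in each, with 0.492% and 1.87% of all genes called. Without the third KO M0 AP-3-84 library 3 and 8 members were called. DESeq2 called 1 and 3. With vehicle, Eif4ebp1 measured 117, 106 and 117 CPM in WT M1 and 136, 90.4 and 103 CPM in KO M1. All 6 of these M1 vehicle libraries lay above all 6 M0 vehicle libraries. In KO M2 it measured 62.1, 67.8 and 65 CPM with vehicle and 60.5, 62.8 and 68.4 CPM with AP-3-84, the lowest bone marrow-derived group with the compound.

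**Figure D4:**
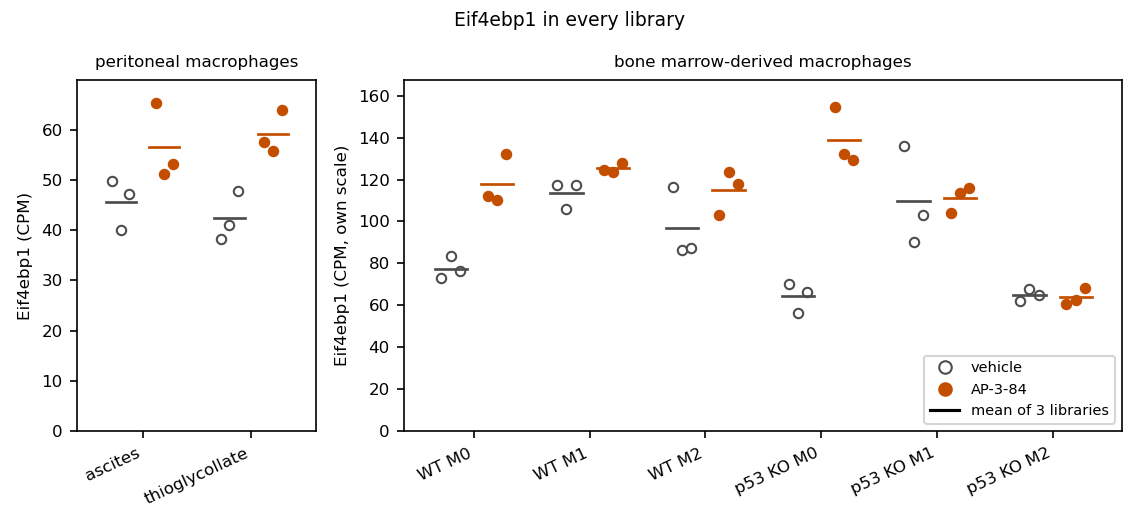
Eif4ebp1 level (CPM, linear axis from 0, own scale in each panel) in every library of the 8 populations, with open circles for vehicle, filled circles for AP-3-84 and a line for the mean of 3 libraries. Treated libraries lie apart from vehicle in both peritoneal and both M0 populations and in WT M1, and overlap vehicle in WT M2, p53 KO M1 and p53 KO M2.

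As a description of which genes moved with Eif5, the 8 log2 fold changes of each gene (1 per population, each with its own vehicle group) were set against those of Eif5. Among 52 members the Pearson correlation was highest for Eif3b (0.86), Eif1ad (0.81) and Eif4e (0.81), and lowest for the heme-regulated kinase Eif2ak1 (-0.84). It was positive for 39 of 52 members with a median of 0.54, against 5600 of 11450 genes with a median of -0.02. In the whole table the highest values included those of Cenpf (0.99), Mycbp (0.96), Smad3 (0.96) and Prkaa1 (0.95). The points share libraries and their scaling with Eif5, and KO M0 is the farthest point for many members. For others it is not, such as Eif2b2 and Eif3l, for which KO M2 lies farthest from 0. Without KO M0 the 3 members gave 0.85, 0.79 and 0.78. Other members moved more. Eif1a went from 0.51 to -0.12, Eif5b from 0.29 to -0.23 and Eif4a1 from 0.54 to 0.20, while Eif4b went from 0.20 to 0.58.

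Vehicle-treated ascites macrophages differed from vehicle-treated thioglycollate macrophages in 25 of 53 members, 19 higher and 6 lower, where 33.7% of all genes were called (20.3% higher and 13.4% lower). Scaling by totals made this 24 and 3, and median-ratio scaling 15 and 8. The libraries did not overlap for 22 members higher and 12 lower in ascites, as for 26.7% and 20.4% of all genes. With all 48 libraries in one fit 7 members were called. Donor genotype, tumour and irritant differ together here and cannot be told apart. Markers of epithelium and the ID8 tumour summed to 123.9 to 149.6 CPM in ascites and 1.36 to 3.26 CPM in thioglycollate macrophages. Macrophage markers summed to 28655 to 30487 against 34284 to 34749 CPM. Neutrophil markers, nearly all S100a8, summed to 29.1 to 33.9 against 61.8 to 65.3 CPM. The part of these in the differences was not tested. The kinase Eif2ak2, also known as an interferon-stimulated gene, stood out at 80.9, 81.5 and 74.5 CPM in ascites and 19.8, 21.6 and 17.1 CPM in thioglycollate macrophages (2.02 on the log2 scale, SE 0.11, edgeR adjusted p = 1.83e-10). Eif1a was lower, at 53.9, 56 and 50.3 against 102, 96.3 and 105 CPM (-0.92, SE 0.08, edgeR adjusted p = 7.33e-08). The groups of neither gene overlapped.

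Smaller differences between these groups were a higher Eif6 (83.2, 74.1 and 80 against 53.3, 48.2 and 46.7 CPM, log2 fold change 0.68) and a higher Eif3d (0.44), which contributes to eIF3 binding of some caps. Eif4ebp2 (-0.48), Eif1b (-0.35) and Eif5 (-0.20, edgeR adjusted p = 0.0127) were lower. By role, 3 of 5 eIF2B genes and 4 of 11 genes of cap binding and scanning were higher with 0 lower, 5 of 14 eIF3 genes were higher and 1 lower, and 5 of 13 start codon and 43S genes were higher and 4 lower. Beside these counts, 20.3% of all genes were called higher and 13.4% lower, and in groups this small they are no result about the roles.

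**Figure D5:**
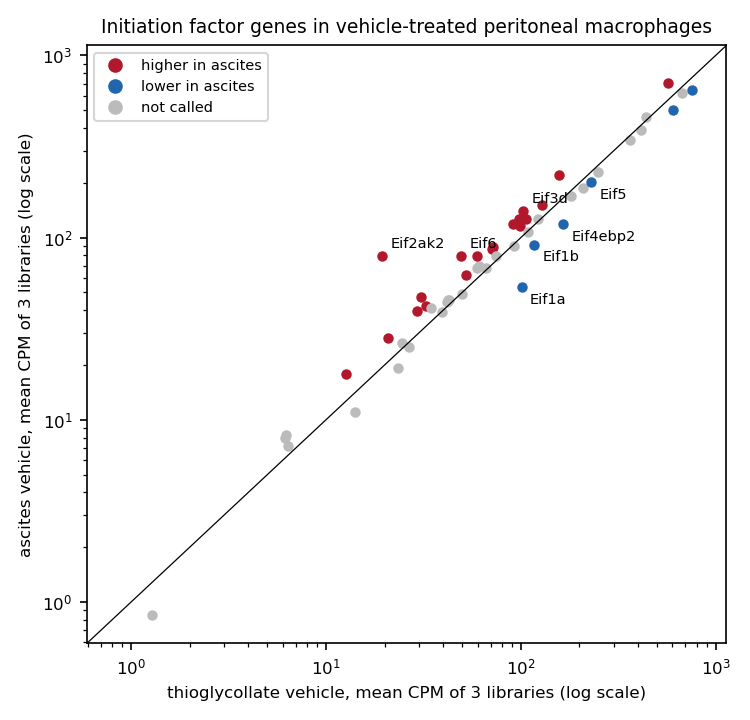
Mean CPM of 3 vehicle libraries in thioglycollate (horizontal, log scale) and ascites macrophages (vertical, log scale) for the 53 members tested, red where called higher in ascites, blue where lower and grey where not called, with the diagonal marking equal levels. Eif2ak2 lies farthest above the diagonal and Eif1a farthest below it among the called members.

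Without compound, KO M0 macrophages differed from WT M0 in 21 of 54 members, 5 higher and 16 lower. Of all genes 33.2% were called (16.4% higher and 16.8% lower). This comparison and the AP-3-84 comparison in KO M0 share the 3 KO M0 vehicle libraries. Neutrophil markers summed to 560 to 713 CPM in KO and 261 to 485 CPM in WT, a move whose part in the differences was not tested. Eif4g2 measured 592, 652 and 613 CPM in KO against 1131, 1326 and 1131 CPM in WT (-0.95, SE 0.17, edgeR adjusted p = 7.95e-05). Eif4e was lower by 1.16 on the log2 scale (SE 0.21, edgeR adjusted p = 9.93e-05) and Eif3j2 by 0.83 (SE 0.15, edgeR adjusted p = 7.4e-05). Eif4a2 (53.7, 47.1 and 51.4 against 24.5, 30.3 and 31.4 CPM, log2 fold change 0.82), Eif4ebp2 (0.68) and Eif3k (0.49) were higher. Of the start codon and 43S genes 6 of 14 were lower and 0 higher.

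In M1 the KO and WT vehicle groups differed in 5 of 54 members, where 11.6% of all genes were called (5.93% higher and 5.71% lower). Macrophage markers summed to 16073 to 25150 CPM in KO M1 and 43565 to 46541 CPM in WT M1, and neutrophil markers to 963 to 2451 against 435 to 562 CPM. In M2, macrophage markers summed to 5894 to 18413 CPM in KO and 24908 to 30922 CPM in WT. The part of these in the differences was not tested. Beside Eif5, Eif2s2 was higher in KO (2194, 1542 and 1837 against 1085, 1107 and 1100 CPM, a difference of 0.76 at an edgeR adjusted p of 0.00544), as were Eif3j2 (0.50) and Eif3c (0.49), and Eif4a1 was lower (-0.64). The Eif2s2 groups were well apart. Without the second WT M1 vehicle library 2 members were called, without the first KO M1 vehicle library 3, and without the third 2. Scaling by totals, which moved the median of all genes by 0.268, gave 15 higher and 0 lower, and DESeq2 4 and 2. In M2 only Eif4ebp1 was called, lower in KO (62.1, 67.8 and 65 against 116, 86.6 and 87.4 CPM, -0.58, edgeR adjusted p = 0.017), where 3.56% of all genes were called. Leaving out the second or the third KO M2 vehicle library, no member was called, and scaling by totals (a shift of 0.176) gave 5 higher and 0 lower.

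Polarization of WT macrophages with LPS and IFN-γ went with 3 higher and 6 lower of 54 members. Of all genes 15.5% were called (8.01% higher and 7.49% lower). Polarization with IL-4 and IL-13 went with 6 higher and 8 lower, where 23.4% of all genes were called (12.7% higher and 10.7% lower). Both comparisons use the same WT M0 vehicle libraries. Macrophage markers summed to 30189 to 38378 CPM in M0, 43565 to 46541 CPM in M1 and 24908 to 30922 CPM in M2. Neutrophil markers summed to 261 to 485, 435 to 562 and 446 to 3934 CPM in the same order. The part of both in the differences was not tested. Eif3a, the largest eIF3 subunit, was lower in each, at 657, 686 and 724 CPM in M0, 375, 344 and 325 CPM in M1 (-0.99, SE 0.14, edgeR adjusted p = 5.53e-06) and 422, 356 and 373 CPM in M2 (-0.85, SE 0.14, edgeR adjusted p = 2.08e-05). The M0 libraries stood far above both. Scaling by totals shifted the medians of all genes by -0.301 and -0.209 and gave 0 higher and 18 lower in M1 and 2 higher and 12 lower in M2.

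In WT M1 the other members with the lowest p were Eif3j2 (-0.83) and Eif4b (-0.46), a helper of the Eif4a helicases, among the lower, and Eif1 (0.46), Eif4ebp1 (0.55) and Eif4a2 (0.68) among the higher. In WT M2 they were Eif4g3 (-0.92) and Eif2ak2 (-0.91) among the lower, and Eif2b2 (0.87), Eif3k (0.66) and Eif3f (0.59) among the higher. Eif2ak2 measured 37, 43 and 31.9 CPM in M0 and 19.5, 20.2 and 19.9 CPM in M2, with no overlap. Eif2b2, the beta subunit of the exchange factor, measured 47.3, 36.6 and 53.4 against 95.7, 67.9 and 86.4 CPM.

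In KO macrophages, whose M0 vehicle libraries serve both comparisons, M1 differed from M0 in 29 of 54 members (21 higher, 8 lower). Of all genes 44.5% were called (22.8% higher and 21.8% lower). M2 differed from M0 in 26 members (20 higher, 6 lower), where 38% of all genes were called (20.1% higher and 18% lower). Macrophage markers summed to 32252 to 38950 CPM in KO M0, 16073 to 25150 CPM in KO M1 and 5894 to 18413 CPM in KO M2, and neutrophil markers to 560 to 713, 963 to 2451 and 337 to 3249 CPM. The part of these in the differences was not tested. Start codon and 43S genes were higher in 10 of 14 in M1 with 0 lower. Eif1ad measured 19.7, 27.7 and 25.7 CPM in KO M0 and 65.9, 74.4 and 69.6 CPM in KO M1 (1.52, SE 0.20, edgeR adjusted p = 4.61e-07), and Eif4e rose by 1.43 (edgeR adjusted p = 2.54e-06). Eif5a measured 290, 306 and 304 CPM in KO M0 and 666, 853 and 674 CPM in KO M2 (1.29, SE 0.18, edgeR adjusted p = 1.68e-06), with Eif1ad (1.26) and Eif1a (1.04) higher as well. Eif4ebp2 was lower in both (-1.54 and -0.93), joined by Eif2ak4 (-1.12) and Eif3k (-0.81) in M1 and by Eif4g3 (-0.95) and Eif1b (-0.69) in M2.

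Other genes of translation were read from lists of regulators of initiation (29 genes), elongation (10) and termination or rescue (11). Ppp1r15a (GADD34), the phosphatase subunit that reverses phosphorylation of eIF2, rose in both peritoneal populations, with 13.2 ± 1.38 CPM (SD, n = 3) under vehicle and 36.9 ± 4.32 under the compound in ascites, a gain of 1.49 in log2 units at an edgeR adjusted p of 5.24e-07. In thioglycollate macrophages the means were 26.2 ± 1.69 and 55.4 ± 4.66 CPM, a gain of 1.08 at an edgeR adjusted p of 1.4e-05. It was the only regulator of 27 tested that was called in ascites, where 1.79% of all genes were. In thioglycollate macrophages 3 of 27 regulators rose and 0 fell, beside 2.51% and 1.82% of all genes. The others were Paip2b (0.61, lost in 5 alternative settings) and Metap1 (0.44, lost in 3), and of 10 termination genes Etf1, the release factor, rose by 0.37.

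In KO M0 macrophages 7 of 28 regulators of initiation rose and 3 fell, beside 12.1% and 8.57% of all genes. Denr, which recycles ribosomes and helps reinitiation, had a mean of 119 ± 11.0 CPM (SD, n = 3) under vehicle and 303 ± 103 under the compound, a gain of 1.35 in log2 units at an edgeR adjusted p of 3.55e-05. Ppp1r15b, the constitutive counterpart of Ppp1r15a, rose by 0.62. Pdcd4, an inhibitor of the Eif4a helicases, fell by 1.80 on the log2 scale and the helicase Ddx3x by 0.65. Of 10 elongation genes Eef1g (1.09) and Eef1e1 (1.46) rose and the kinase Eef2k fell (-1.30), and of 10 termination genes Gspt1 (0.76) and Etf1 (0.44) rose. With 10 genes in each of these 2 lists, 3 and 2 calls stand beside 20.7% called over all genes and are no result about the lists. All calls of these lists fell in the ascites, thioglycollate and KO M0 comparisons.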

How the data were processed

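RNA of 48 macrophage libraries was measured by 3′ mRNA sequencing: per the labels' protocols, 100 ng of total RNA went into QuantSeq FWD libraries read as single reads of 75 bases, so a read falls near the 3′ end of its message. Raw counts per gene were deposited by the authors as 1 table. RSEM, Bowtie2 and DESeq2 are named in the submitters' processing notes. For their settings, the build and the annotation: not given in the sources used here. If RSEM shared reads among near-identical genes, counts of such copies are estimates. Symbols and gene coordinates came from GENCODE M21 (GRCm38) by gene ID, which held 51596 of 51789 IDs, and promoter windows from RefSeq (GRCm38.p6).

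Differences in counts were tested by quasi-likelihood in edgeR 4.0.16 (R 4.3.3, TMM scaling, filterByExpr, 1 mean per group, two-sided), apart for 12 peritoneal libraries (16955 genes) and 36 bone marrow-derived libraries (11779 genes). A call needs a p under 0.05 after Benjamini-Hochberg adjustment over all genes of a comparison. CPM were computed with TMM scaling. Motifs were searched in the 250 bases before each start. The script was tested on simulated data. The labels do not say that replicates were separate animals or cultures, so p-values measure only the spread between these samples, which may be technical. Whether replicate numbers pair the samples is not stated either. Of 24 same-numbered pairs 4 correlated above 0.1 (r from -0.33 to 0.38), all in WT M2 and KO M1, which does not settle it. Members and lists were chosen with earlier results of these data known.

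The text names, in each AP-3-84 comparison, the members called (the 6 lowest p per direction where over 10), in each vehicle comparison the 3 lowest p per direction, in each difference of responses the 2 lowest p, the 3 members and 5 genes most like Eif5 (1 of these 5 is not reported here), and a set of core factors. Other members are named where a count or an alternative turns on them, after their values were seen. Alternatives were 2 other scalings (median-ratio, totals), no filter, the Wald test of DESeq2 1.42.0, all 48 libraries in one fit, only the groups compared, a replicate block, and leaving out each library.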

Additional observations from a re-analysis of the deposited data

Results flagged for a closer look

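The AP-3-84 response differed between KO and WT M0 macrophages, by the test of that difference itself, in 17 of 53 members beside Eif5. Each had a higher log2 fold change in KO. Of all genes tested 10% were called higher and 6.99% lower. The differences of log2 fold changes were 1.56 for Eif4g2, 1.56 for Eif4e, 1.52 for Eif2s1, 1.37 for Eif1ad, 1.24 for Eif5a, 1.23 for Eif3j2 and 1.22 for Eif1ax. They were 1.17 for Eif2b3, 1.14 for Eif2b1, 1.12 for Eif2s3x, 1.09 for Eif2ak2, 0.96 for Eif2s2 and 0.94 for Eif1a, and 0.83 for Eif4a1, 0.78 for Eif3b, 0.76 for Eif3g and 0.75 for Eif4g1. Of these, Eif2b1 (edgeR adjusted p = 0.0455) and Eif2s3x (edgeR adjusted p = 0.0425) lay closest to the threshold, and neither they nor Eif2b3 were called in KO M0 alone. Of 19 alternative settings 10 lost the call of Eif2b1, 8 that of Eif2b3, 8 that of Eif2s3x, 7 that of Eif4a1 and 1 that of Eif3b, and none lost any of the other 12. Without the third KO M0 library with AP-3-84, which lay nearest to vehicle for most called genes, 25 members were called higher and 1 lower, and all 17 kept their call. The KO M0 vehicle libraries enter each of these differences. With vehicle, 16 of 54 members were called lower in KO M0 than in WT M0, where 16.8% of all genes were. Eif4g2, Eif4e and Eif3j2 were among the 16. The part of these vehicle levels in the differences of responses was not tested.

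The response of Eif4ebp1 differed between polarizations, by -0.78 for M1 against M0 and by -0.75 for M2 against M0, averaged over both genotypes.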

How the results depend on the processing

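Counts of called members depended on the setting as follows. In ascites macrophages (2 beside Eif5) there were 1 with median-ratio factors, 1 with total scaling, 0 with all libraries in one fit, 1 with only the groups compared and 1 with the replicate block. In thioglycollate macrophages (6) there were 2, with no filter 3, with DESeq2 3, with all libraries in one fit 0, with only the groups compared 3 and with the replicate block 2. In WT M0 (0) DESeq2 and the single fit gave 1 each, and in KO M0 (21) only the groups compared gave 9. Between vehicle groups, the single fit gave 7 for ascites against thioglycollate (25), 11 for KO against WT in M1 (5), 2 in M2 (1) and 14 for WT M1 against WT M0 (9). Total scaling gave 15, 5 and 18 in the last 3, no filter 0 in M2 and 3 for WT M1 against WT M0, DESeq2 2 in M2, and only the groups compared 0 in M2 and 18 for WT M1 against WT M0.

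Leaving out 1 library gave 0 to 1 in ascites, 0 to 3 in thioglycollate, 14 to 26 in KO M0, 2 to 6 for KO against WT in M1, 0 to 2 in M2, and 14 to 37 over the 6 differences of responses (19). The correlation with Eif5 then ranged from 0.81 to 0.88 for Eif3b, 0.77 to 0.85 for Eif1ad, 0.79 to 0.87 for Eif4e, 0.92 to 0.99 for Cenpf, 0.93 to 0.98 for Mycbp, 0.69 to 0.97 for Smad3 and 0.88 to 0.98 for Prkaa1. With total scaling it was 0.78 for Eif1ad and 0.78 for Eif4e, and 0.83 for Eif4e in the single fit. Eif5 differed by 0.28 in ascites and 0.58 in WT M2 macrophages with total scaling.

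Members whose treated and vehicle libraries did not overlap numbered, under total and median-ratio scaling, 8 and 8 higher in ascites (17), 4 and 1 lower in thioglycollate (2), and 0 and 2 lower (1) and 8 and 2 higher (4) in WT M2. Total scaling gave 1 lower in WT M1 (4), 2 higher in KO M1 (1) and 1 higher in KO M2 (3), and median-ratio scaling 5 lower in KO M2 (3). The cause of these shifts was not tested. No called member that the text names changed direction under any alternative, but counts did: the 1 call of KO against WT in M2 was lower, and the 5 with total scaling were higher. Eif5 values near 0 in WT M0 and KO M1 turned sign without 1 library. Few same-numbered samples deviated together, which does not settle whether they were paired, so the replicate block says nothing on the design. The block left 18 calls in KO M0 and 17 over the differences of responses, and 6 of 24 samples correlated best with their own number. Bone marrow-derived libraries are shallower, and low genes such as Eif5a2 and Eif2ak3 have wide errors there.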
